A study of Mus musculus with 29 samples.

Results

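H3K36me2, the dimethyl form of lysine 36 on histone H3, was compared between 4 h and 1 h of lipopolysaccharide (LPS) in cells of the mouse macrophage line RAW264.7, which was transformed with Abelson murine leukaemia virus. The deposited peak lists of these 2 chromatin immunoprecipitation libraries, of 29 samples in the series, were set against each other on chromosomes 1 to 19 and X. They hold 46696 peaks at 4 h and 48312 peaks at 1 h. Both groups received LPS, the endotoxin of Gram-negative bacteria, at 100 ng/ml, and neither received flavopiridol. Beside them stand peak lists of 6 other histone marks at both times, a list of the transcription factor PU.1 in untreated cells, and H3K36me2 lists of untreated cells, of cells given flavopiridol for 1 h, and of cells given flavopiridol for 1 h and then LPS for 4 h. Flavopiridol inhibits the elongation kinase CDK9.

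H3K36me2 is written by the NSD family of methyltransferases and by ASH1L, and SETD2 converts H3K36 to the trimethyl form in the bodies of transcribed genes. H3K36me2 usually forms wide domains over genes and the space between them, is kept off CpG-rich promoters, where KDM2 demethylases act, and hinders the Polycomb enzyme that writes H3K27me3. LPS is sensed by Toll-like receptors and switches on inflammatory genes in macrophages.

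There is 1 library per time, so no spread between cultures can be measured and no p-value is given. Every difference below is between 2 libraries, and the 95% Wilson intervals given for shares reflect counting error and nothing else. How deeply each library was read is unknown, because the lists carry no read totals. The authors' deposited strength of the peaks moved with time: the median −log10 q was 3.45 at 4 h and 2.77 at 1 h, and the median fold enrichment over the caller's background 1.73 at 4 h and 1.57 at 1 h. The part of detection strength in the differences below was not tested. A mark spread over more of the cells and a mark denser in each cell cannot be told apart in a bulk library. The files name no genes, so the identity of the cells was not checked against marker genes and regions are given by mm9 position.

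H3K36me2 covered more of the genome at 4 h than at 1 h, in fewer and wider peaks. The lists covered 348.8 Mb at 4 h and 320.5 Mb at 1 h, which is 13.2% of the segmented chromosomes at 4 h and 12.1% at 1 h. The net difference was 28.3 Mb, or 8.85% of the 1 h length. The mean peak width was 7470 bp at 4 h and 6634 bp at 1 h, and the median 3014 bp at 4 h and 2824 bp at 1 h. Peaks of 50 kb or more numbered 953 at 4 h and 683 at 1 h, and held 77.7 Mb at 4 h and 54.2 Mb at 1 h. Each list was classed by its own widths, so a domain that was joined or passed 50 kb brought all its length into this class. Domains already of 50 kb or more at 1 h, with 1 peak in each list, changed by a median of 124 bp. The widest 4 h peak spanned 478659 bp on chromosome 2 (44973866 to 45452524), and was singled out after its value was seen. At 1 h, 99.4% of its length was already covered, in 2 peaks. On each of the 20 chromosomes the 4 h list was longer, by 6.22% to 12.5% on autosomes and by 9.06% on X, where the mark was sparse (6.46% of X covered at 4 h and 5.93% at 1 h).

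Most H3K36me2 territory was common to both times, and more length was added than removed. The lists shared 300.4 Mb, which is 86.1% of the 4 h list and 93.7% of the 1 h list. Length found only at 4 h, called added here, came to 48.4 Mb, and length found only at 1 h, called removed, to 20.0 Mb, a ratio of 2.41. The added length arose in 3 ways. Edges of peaks present at both times gave 24.2 Mb (50.0%), gaps between 1 h peaks that 1 4 h peak spanned gave 15.1 Mb (31.2%), and new peaks gave 9.07 Mb (18.7%). The removed length had the same 3 parts, with trimmed edges at 11.3 Mb, opened gaps at 4.83 Mb and lost peaks at 3.94 Mb. Added length exceeded removed length in each part, and by the largest ratio in the gaps. With only peaks of −log10 q 5 or more in each list, new peaks held 83.9% of the added length, edges 14.1% and gaps 1.97%, and the net difference was 46.2 Mb.

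**Figure D1:**
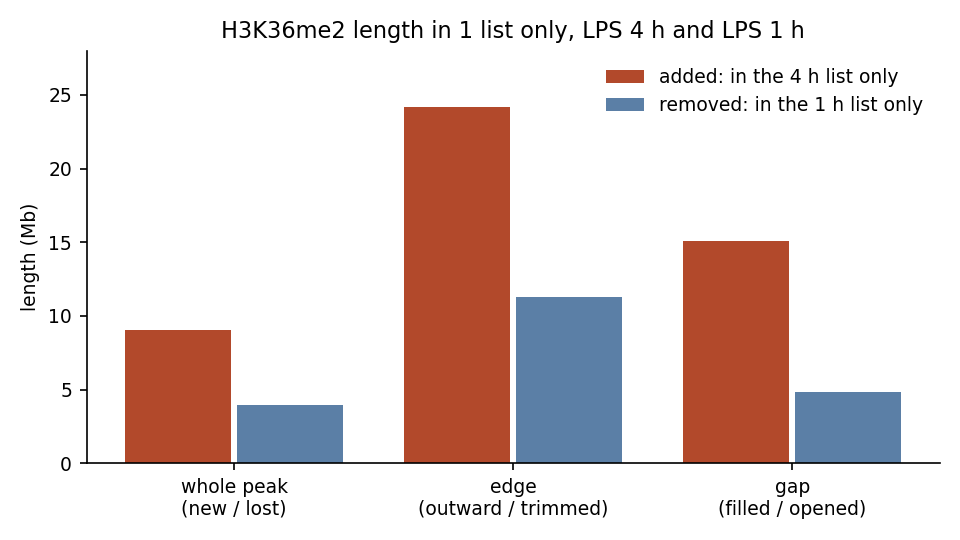
H3K36me2 length (Mb) found in the 4 h list only (added) and in the 1 h list only (removed), split into whole peaks, edges of overlapping peaks and gaps between neighbouring peaks. Edges hold most of it at 24.2 Mb added and 11.3 Mb removed, and each bar of added length is higher than its counterpart.

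New peaks were many but small. Of the 4 h peaks, 7778 (16.7%, interval 16.3 to 17.0) overlapped no 1 h peak, and of the 1 h peaks 4046 (8.37%, 8.13 to 8.63) overlapped no 4 h peak. The median width was 896.5 bp for new peaks and 747 bp for lost peaks, against 3127 bp at 4 h and 2683.5 bp at 1 h for domains with 1 peak in each list. Small peaks lacked a partner far more often than wide ones: 49.95% of 4 h peaks under 1 kb were new and 27.9% of 1 h peaks under 1 kb were lost. Of peaks of 10 kb or more, 1 of 8758 was new at 4 h and 0 of 8129 were lost from 1 h. An overlap of 1 bp was enough for a partner, so the rule itself favours partners for wide peaks. Its part in this contrast was not tested. New peaks lay close to existing territory, at a median of 3326 bp from the nearest 1 h peak, with 63.5% within 5 kb and 1.29% beyond 100 kb. Their deposited strength was near that of the rest of the list, with a median −log10 q of 3.26 for new peaks and 3.42 for one-to-one domains at 4 h. The excess of new over lost peaks turned round under 1 alternative: with the 4 h list trimmed by −log10 p to the length of the 1 h list, 5927 peaks were new and 10457 were lost. With peaks within 3 kb joined first, 3881 were new and 2100 were lost.

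**Figure D2:**
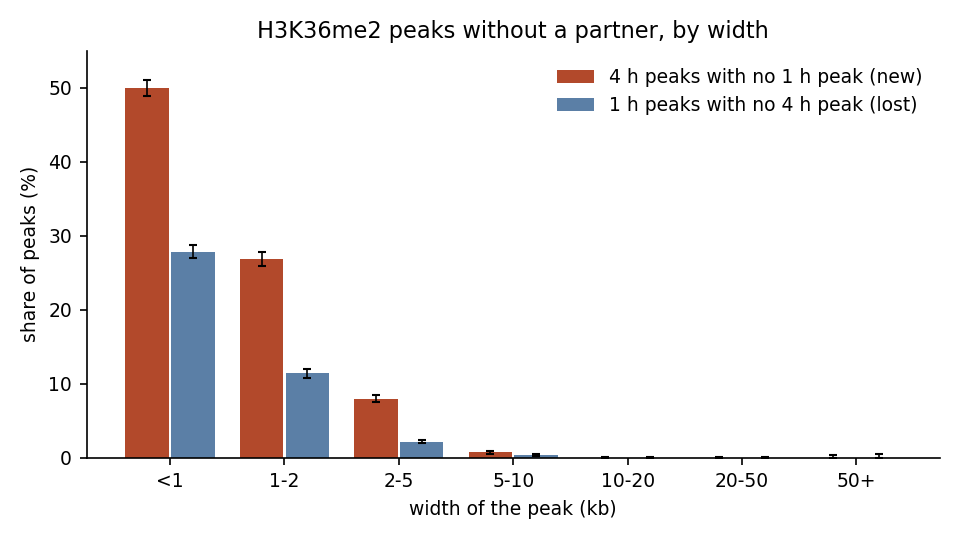
Share of 4 h peaks without a 1 h partner and of 1 h peaks without a 4 h partner (%), by width of the peak in kb, with 95% Wilson intervals for counting error. Under 1 kb, 49.95% of 4 h peaks were new and 27.9% of 1 h peaks were lost, and above 5 kb both shares were under 1%.

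Domains present at both times more often widened than narrowed. Among 28230 domains with 1 peak in each list, 13722 (48.6%) were wider at 4 h by 200 bp or more and 6873 (24.3%) were narrower by as much. The median change was 180 bp (quartiles −187 and 769 bp). In base pairs the median gain was similar in all classes from 2 kb up, and larger below. Domains under 1 kb at 1 h gained a median of 375 bp, those of 2 to 5 kb gained 124 bp and those of 50 kb or more also 124 bp. On the log2 scale of the width ratio, 4 h over 1 h, these medians were 0.68, 0.05 and 0.00. Domains were binned by their 1 h width, which enters the change itself, and the part of this binning in the larger gain of small domains was not tested.

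Joining of neighbouring domains was more frequent than splitting. In 5155 places 1 4 h peak overlapped 2 or more 1 h peaks, and together these joined 11999 peaks, or 24.8% of the 1 h list. In 1716 places 1 1 h peak was overlapped by 2 or more 4 h peaks. At −log10 q of 5 or more 489 joins and 162 splits were left, and with peaks within 3 kb joined first 2606 and 802. Most joins were of pairs: 3949 took in 2 peaks, 879 took in 3, and 106 took in 5 or more, up to 9. Merged domains covered 111.3 Mb at 4 h and 96.3 Mb at 1 h, a difference of 14.99 Mb, while one-to-one domains differed by 9.64 Mb and split ones by −2.82 Mb. Of 4 h peaks of 50 kb or more, 52.3% were merged domains, against 4.04% of those of 2 to 5 kb. A merged peak must span at least 1 whole gap, and the smallest 1 h gap is 1221 bp, so the definition favours wide peaks. The definitions also favour more length at 4 h in merged domains and less in split ones. Their part in these differences was not tested.

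The share of gaps that closed differed with their width and with the marks in them. Of 48292 gaps between neighbouring 1 h peaks, 8290 (17.2%, 16.8 to 17.5) were closed at 4 h. Gaps under 1.5 kb closed in 59.7% of cases, those of 1.5 to 2 kb in 36.0%, those of 2 to 5 kb in 12.8% and those of 5 to 10 kb in 1.12%. Gaps that held an H3K4me3 peak at 1 h, the mark of active promoters, closed less often at the same width. At 1.5 to 2 kb, 182 of 1928 gaps with H3K4me3 closed (9.44%, 8.21 to 10.8), against 2385 of 5211 without it (45.8%, 44.4 to 47.1). At 2 to 5 kb the shares were 1.26% with H3K4me3 and 18.2% without. The difference exceeds counting error in both width classes. At 1.5 to 2 kb it was −36.3 percentage points, and −18.2 with only peaks of −log10 q 5 or more.

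**Figure D3:**
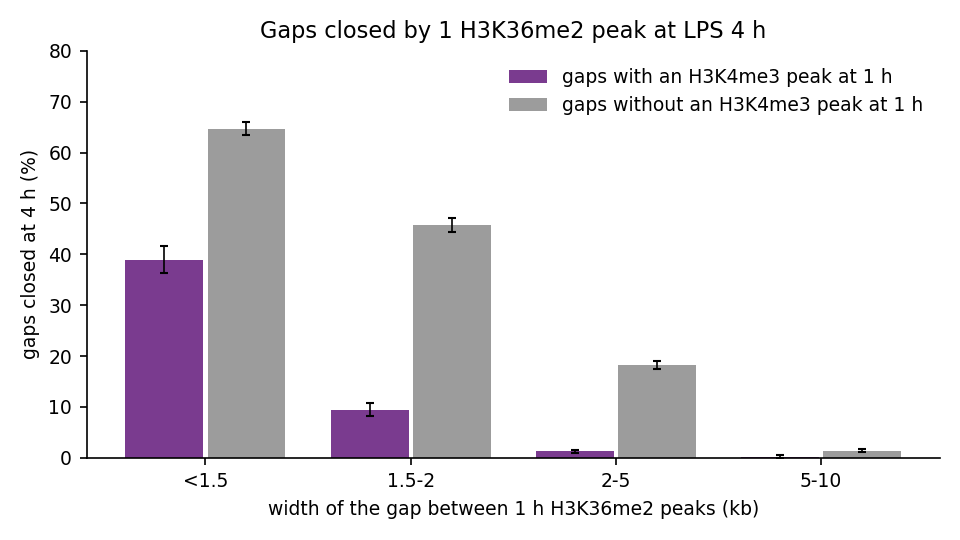
Share of gaps between neighbouring 1 h H3K36me2 peaks that 1 peak spanned at 4 h (%), by gap width in kb, for gaps with and without an H3K4me3 peak at 1 h, with 95% Wilson intervals. At 1.5 to 2 kb, 9.44% of gaps with H3K4me3 closed and 45.8% of those without.

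Other features were compared among gaps without H3K4me3. The largest difference was for H3K36me2 of untreated cells: at 1.5 to 2 kb, gaps that held an untreated peak closed in 54.8% of cases (53.0 to 56.6) and those without one in 32.9% (30.9 to 34.9). At 2 to 5 kb the shares were 23.8% with an untreated peak and 10.8% without. Among gaps of 1.5 to 2 kb without H3K4me3, those with H3K27ac, a mark of active enhancers and promoters, closed in 31.3% of cases (28.2 to 34.7) and those without it in 48.3%. Gaps with a PU.1 site closed in 35.5% of cases, against 48.9% without one. Gaps with H3K4me1, the general enhancer mark, closed in 37.3%, against 49.9% without it. H3K27me3 gave a difference of similar size, at 33.1% of 175 gaps with it and 46.2% without. H3K79me2, found over the start of transcribed genes, gave 44.9% with and 45.9% without, a difference within counting error, and H3K36me3 gave 48.5% with and 42.8% without. At 2 to 5 kb, gaps with H3K27me3 closed in 9.36% of cases (7.40 to 11.8) and those without it in 18.8%. The shares were 14.4% with H3K27ac and 18.6% without, 15.5% with PU.1 and 18.8% without, and 14.9% with H3K4me1 and 19.5% without. H3K79me2, with 14.9% (13.2 to 16.8) against 18.8% without it, differed beyond counting error in this class. H3K36me3 gave 18.5% with and 17.7% without, with intervals that overlap.

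The added length was placed on the authors' 27-state segmentation of the 1 h cells, which gives a state to each interval in steps of 200 bp. The labels tie the 4 h, 1 h and untreated H3K36me2 libraries to all 3 segmentations, so the states are not independent of either peak list. State numbers carry no names in the files and are described by the 1 h peaks that cover them. States 1 to 6 lay at least 99.0% inside 1 h H3K36me2 peaks and left only 0.405 Mb outside, so nearly all of the added length came from the other 21 states.

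States 26, 15 and 27 gave 76.0% of the added length. With only peaks of −log10 q 5 or more, state 26 gave 26.3%, state 15 11.8% and state 27 5.67%. State 26 was the leading source, with 14.8 Mb (30.6%), except when peaks within 3 kb were joined first: it then gave 24.5% and state 15 30.2%. It lay inside 1 h H3K36me2 peaks over 64.8% of its length and under H3K36me3 over 29.5%, with few other marks. State 15 gave 13.1 Mb (27.0%). It is the bulk of H3K36me3 territory, the bodies of transcribed genes, with H3K36me3 over 99.9% of its length and 1 h H3K36me2 over 19.8%. State 27, which covers 1745 Mb with almost no peaks of any mark, gave 8.89 Mb (18.4%). The next were state 16, mainly H3K4me1, with 2.59 Mb (5.35%), and state 12, H3K36me3 with H3K79me2, with 1.58 Mb (3.27%). State 16 also lay under 1 h H3K36me2 over 37.7% of its length, PU.1 of untreated cells over 31.0% and H3K27ac over 13.2%. The ways of growth drew on different states: state 26 supplied 42.1% of filled gaps but 18.6% of new peak length, while state 27 supplied 7.76% of filled gaps and 29.7% of new peak length. State 15 supplied 31.9% of new peak length and 24.4% of filled gaps.

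Set against the length available, the states ranked differently. Over the whole genome 2.09% of the length outside 1 h H3K36me2 peaks was added. Among the 21 states with at least 1 Mb outside these peaks, the highest rates were 49.3% in state 7, 44.4% in state 11 and 35.2% in state 8. All 3 carry H3K79me2 over at least 99.1% of their length, and states 7 and 8 H3K4me1 as well. At −log10 q of 5 or more 22.2% of state 7 was added and state 3 led, and state 11 led with segments of at least 400 bp or with peaks within 3 kb joined. These states were already mostly inside the 1 h peaks (82.7%, 82.8% and 59.2%) and the amounts were small, at 0.558, 0.835 and 0.389 Mb. State 26 followed at 34.6%, and state 15 stood at 11.5%. None of the rates in this ranking is matched for distance from 1 h peaks, and states 7, 11 and 8 were not split by distance. The lowest rates were 0.139% in state 20, H3K4me3 together with H3K27me3, 0.302% in state 19, the main H3K27me3 state, and 0.512% in state 27. The states with H3K4me3 over most of their length differed among themselves. State 22 had 1.83% added, state 23, with H3K27ac over 99.0% of its length, 1.85%, and state 10, with H3K27ac and H3K79me2, 3.22%. State 25, which also holds H3K4me1 over 97.2%, had 7.61%, state 24, with H3K4me1 and H3K27ac, 12.5%, and state 9, with H3K4me1 and H3K79me2, 19.9%.

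**Figure D4:**
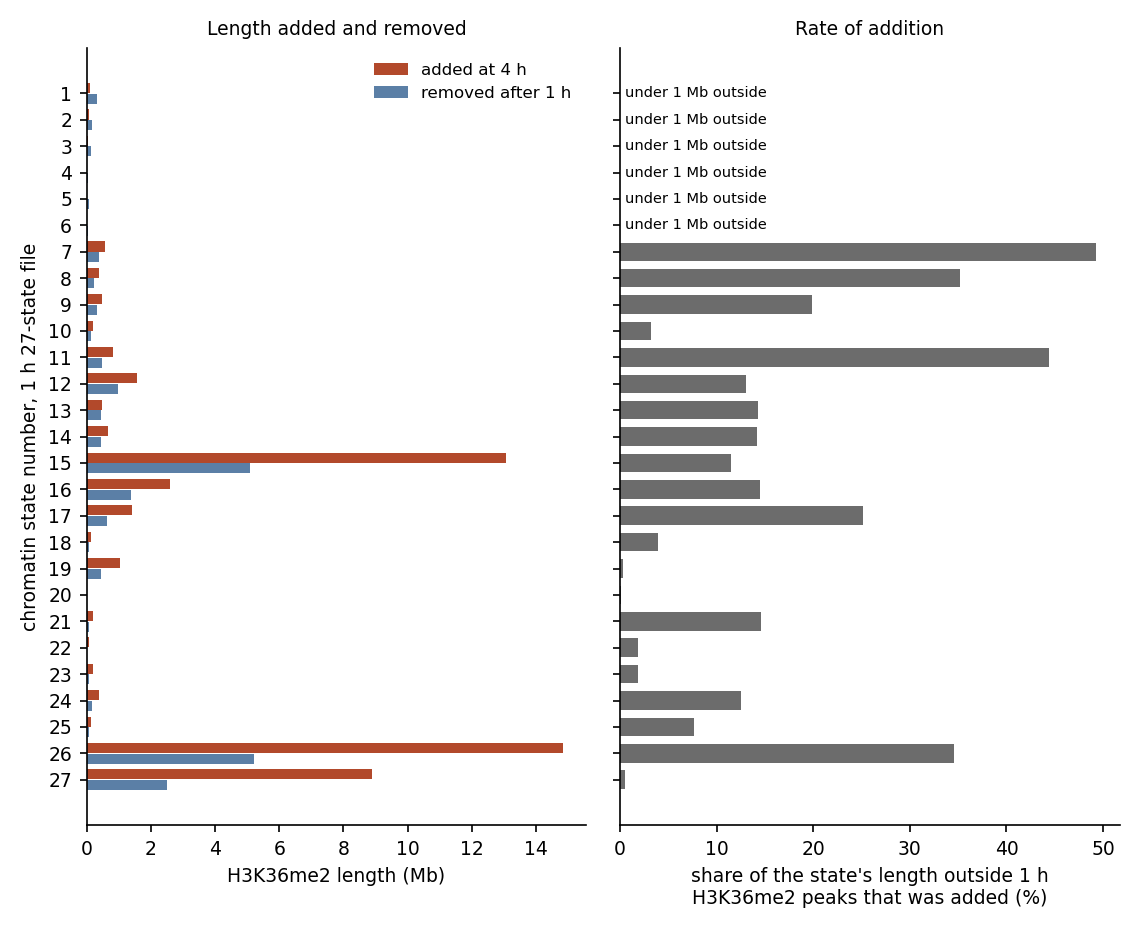
Left, H3K36me2 length added at 4 h and removed after 1 h (Mb) in each of the 27 states of the 1 h segmentation. Right, the share (%) of each state's length outside 1 h H3K36me2 peaks that was added, for the 21 states with at least 1 Mb outside. States 26, 15 and 27 lead the added length at 14.8, 13.1 and 8.89 Mb, while the rates are highest in states 7, 11 and 8.

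Removed length came from much the same states. States 26 and 15 gave 26.1% and 25.4% of the removed length. Added exceeded removed length in 21 states, by 3.57 to 1 in state 27, 2.84 to 1 in state 26 and 2.57 to 1 in state 15. In state 13, which carries H3K36me3, H3K79me2 and H3K4me1 together, the lengths were nearly equal, at 0.480 Mb added and 0.462 Mb removed. States 26, 15 and 27 accounted for 33.9%, 28.2% and 22.6% of the net difference. In the 6 states with more removed than added length, states 1 to 6, removal came to 0.802 Mb. Only 0.405 Mb of these states lay outside 1 h peaks and could be added, so the direction was nearly fixed in advance. States 1 to 6 make up 48.8% of the 1 h list and 4.00% of the removed length.

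In the 6 states examined, states 12, 15, 16, 19, 26 and 27, the rate was lower in each further class of distance up to 100 kb. Beyond it, state 15 had 1.18%, from 0.00445 Mb added of 0.377 Mb, against 1.14% at 20 to 100 kb. Of the added length, 65.2% lay within 1 kb of a 1 h peak, 26.5% at 1 to 5 kb and 0.212% at 100 kb or more. Within 1 kb, 51.2% of the available state 26 length was added, 38.8% of state 15, 30.5% of state 27 and 23.4% of state 19. At 20 to 100 kb these 4 states kept that order, with 6.32% in state 26, 1.14% in state 15, 0.0794% in state 27 and 0.0222% in state 19. States 16 and 12 stood below state 15 within 1 kb, at 34.7% and 32.5%, and above it at 20 to 100 kb, at 1.80% and 1.36%. The last value rests on 0.00556 Mb added of 0.409 Mb in state 12. At 100 kb or more state 19 (0.00797%, from 0.0055 Mb added) stood above state 27 (0.00448%, from 0.0582 Mb added). The low rate of H3K27me3 chromatin was seen at equal distance up to 100 kb, with 1.57% of state 19 added at 1 to 5 kb against 6.38% of state 27.

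**Figure D5:**
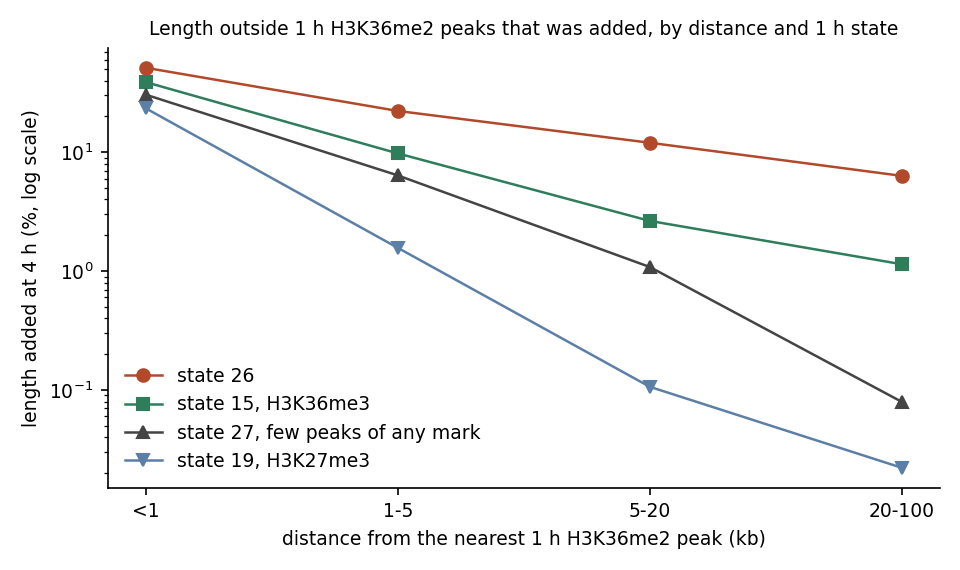
Share of the length outside 1 h H3K36me2 peaks that was added at 4 h (%, log scale), by distance from the nearest 1 h peak in kb, for 4 states of the 1 h segmentation. The order of these 4 states is the same in the 4 classes of distance drawn, with 6.32% in state 26 and 0.0222% in state 19 at 20 to 100 kb.

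In the 4 h segmentation state 26 was also the leading state of the added length, at 41.9%. Length added in state 27 of the 1 h file was state 26 at 4 h over 50.3% of its extent and still state 27 over 40.9%. By contrast 0.538% of state 27 length outside both lists became state 26. Length added in state 15 stayed in state 15 over 68.0% and became state 26 over 27.1%. These moves are not independent of the peak lists, for the reason given above.

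Other marks showed where the added length lay. H3K36me3 at 1 h covered 46.0% of the added length, 48.1% of the removed length, 29.9% of the length shared by both lists and 5.67% of the length outside both. It covered 49.8% of new peak length and 55.6% of lost peak length, so the higher share was common to added and removed length. H3K4me1 at 1 h covered 21.6% of the added, 31.4% of the removed, 31.7% of the shared and 2.84% of the outside length. H3K79me2 at 1 h covered 12.2% of the added, 19.6% of the removed and 21.6% of the shared length. H3K27me3 at 1 h covered 3.29% of the added and 3.71% of the removed length, against 16.5% of the length outside both lists. Its share was 4.89% in new peaks, 3.78% in edges and 1.53% in filled gaps, and 1.59% of all added length at −log10 q of 5 or more. PU.1 sites of untreated cells covered 9.92% of filled gaps, 4.85% of edges and 2.87% of new peak length. On the added length, H3K27ac covered 12.4% of it at 4 h and 9.62% at 1 h, and H3K36me3 45.0% at 4 h and 46.0% at 1 h. The H3K27ac share was also higher at 4 h elsewhere. It was 12.5% at 4 h and 9.62% at 1 h on the shared length, and 16.7% and 13.9% on the removed length.

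Of the 6 other marks, in percentage points, H3K4me3 differed most in the share of peaks that met H3K36me2, and H3K27ac in the share of length. An H3K36me2 peak of the same time overlapped 52.1% (51.4 to 52.7) of H3K4me3 peaks at 4 h and 45.2% (44.5 to 45.9) at 1 h. By length, 17.2% of H3K4me3 territory lay under H3K36me2 at 4 h and 12.8% at 1 h. Using the 1 h H3K4me3 list for both times, 49.5% of its peaks met H3K36me2 of 4 h, against the same 45.2% at 1 h. For H3K27ac the shares of peaks were 69.3% at 4 h and 67.8% at 1 h, and for H3K36me3 91.0% at 4 h and 88.9% at 1 h. By length, H3K27ac lay under H3K36me2 over 48.0% at 4 h and 43.4% at 1 h. H3K27me3 had 5.60% of peaks at 4 h and 4.28% at 1 h, and by length 1.37% at 4 h and 1.01% at 1 h. Relative to the 1 h value, both H3K27me3 shares differed most of the 6 marks. For H3K4me1 the order by peaks of each time was the other way, at 59.4% at 4 h and 61.1% at 1 h. By length it was not, with 58.4% of H3K4me1 territory under H3K36me2 at 4 h and 57.6% at 1 h. Using the 1 h H3K4me1 list for both times, 63.0% of its peaks met H3K36me2 of 4 h, against the same 61.1% at 1 h. H3K4me3 at 1 h covered 4.17% of the added edges against 1.38% of the length outside both lists. It covered 3.75% of all added length and more, 5.01%, of the removed length.

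Part of the added length had carried H3K36me2 in untreated cells. The untreated list covered 25.5% of the added length, 28.8% of the removed length and 85.4% of the shared length. Among the kinds of added length the share was 34.3% for filled gaps, 24.3% for edges and 14.2% for new peaks. The 1 h library is shared by the steps before and after it. With flavopiridol before LPS for 4 h, H3K36me2 peaks covered 29.4% of the added, 21.1% of the removed and 64.4% of the shared length. That list held 230.0 Mb in all. After flavopiridol alone, H3K36me2 peaks covered 45.7% of the added, 41.3% of the removed and 79.3% of the shared length, in a list of 304.6 Mb. Both lists were weaker, with a median −log10 q of 0.99 and 1.19 in that order, against 3.45 at LPS 4 h without flavopiridol. The part of detection strength in these shares was not tested.

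In the step from untreated cells to 1 h, added length also exceeded removed length. There 58.1 Mb was added and 18.7 Mb removed, 20.4% of 1 h peaks were new and 8.68% of untreated peaks were lost, 56.1% of one-to-one domains were wider by 200 bp or more and 21.1% narrower, and joins outnumbered splits 5.40 to 1. The 2 steps share the 1 h library. From 1 h to 4 h, the other marks also had more added than removed length, at ratios of 1.42 for H3K79me2 to 3.86 for H3K27ac, with H3K36me3 as the exception at 0.651. The H3K36me3 list was shorter at 4 h (net change −3.30%), with 1365 joins and 2731 splits. New peaks made up 23.4% of the H3K27ac list at 4 h and lost peaks 4.58% of that at 1 h. In the same order, new at 4 h and then lost from 1 h, the shares for H3K4me1 were 16.4% and 4.51%, for H3K4me3 10.4% and 5.19%, and for H3K36me3 10.4% and 14%. For H3K79me2 they were 14.7% and 11.3%, and for H3K27me3 24.8% and 9.87%. The 4 h list of H3K27ac was 24.2% longer than that of 1 h, of H3K4me1 13.6%, of H3K27me3 11.6%, of H3K4me3 9.12% and of H3K79me2 2.79%. The H3K36me2 value of 8.85% thus lay within the range of the other marks, and differences between marks could not be tested with single libraries.

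The widest regions of each kind show these patterns in place. The widest new peak, 12013 bp on chromosome 3 (126948245 to 126960257), lay in state 27 over 76.7% of its length and in state 26 over the rest. It held no peak of the 6 other marks at either time, and untreated H3K36me2 covered 2.66% of it. The second, on chromosome 8 (34349343 to 34358612), had been covered over 97.6% of its length in untreated cells. The third, on chromosome 2 (130605129 to 130613518), lay in H3K36me3 throughout at 1 h. H3K4me1 covered 95.5% of it at 4 h and 45.5% at 1 h, and H3K27ac 34.1% at 4 h and 11.5% at 1 h. The fourth, also on chromosome 2 (157627199 to 157635394), also lay in H3K36me3 throughout at 1 h, with H3K27ac over 28.01% at 4 h and 10.9% at 1 h, and was covered over 87.6% in cells given flavopiridol before LPS. The fifth, on chromosome 8 (3151901 to 3160048), lay mainly in state 15 (57.0%).

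The widest lost peaks were mostly in H3K36me3 chromatin. The first 2, on chromosome 11 (82815879 to 82824043) and chromosome 14 (8729943 to 8737439), were covered by H3K36me3 over their full length at both times. The fourth, on chromosome 1 (175791522 to 175798762), was too, and the third, on chromosome 3 (151390252 to 151397542), over 78.3% at 4 h and 66.9% at 1 h. The fifth, on chromosome 16 (97758883 to 97765546), was under H3K36me3 over 100% at 4 h and 73.2% at 1 h, but differed from the others in further marks. H3K4me3 covered 99.2% of it at 4 h and 0.465% at 1 h, H3K79me2 97.2% at 4 h and 45.4% at 1 h, and H3K27ac 39.9% at 4 h and 3.27% at 1 h. There the promoter and elongation marks covered more at 4 h, where H3K36me2 had no peak.

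The domains that took in the most 1 h peaks were broad and rich in state 26. A 4 h peak of 102262 bp on chromosome 7 (124635510 to 124737771) joined 9 peaks that covered 83055 bp at 1 h, and lay in state 26 over 63.6%. Another on chromosome 6 (94460368 to 94558329) joined 9 peaks of 78373 bp in all. The next 2 joined 8 peaks each, on chromosome 12 (89643294 to 89703047) and chromosome 5 (24415720 to 24450712), and the fifth joined 7 on chromosome 3 (51761641 to 51832804). In cells given flavopiridol alone, without LPS, H3K36me2 covered 81.8% to 100% of each of these 5. In untreated cells it covered less of each, at 45.6% to 83.1%. The longest gap filled, 12750 bp on chromosome 11 (119051503 to 119064252), was covered by H3K36me3 over 61.0% at 4 h and 100% at 1 h. The other 4 longest, of 9577 to 11767 bp, lay on chromosomes 10 (12390993 to 12402759) and 16 (35775549 to 35786348, 11714253 to 11724248 and 11425523 to 11435099).

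Among domains with 1 peak in each list, the largest gain was on chromosome 4 (151142772 to 151156341), with 13570 bp at 4 h and 2750 bp at 1 h. The next 4 gained 9437 to 9745 bp, on chromosomes 14 (68441305 to 68453564), 17 (89037253 to 89047134) and 12 (87443052 to 87453314 and 120415411 to 120426237). Both regions on chromosome 12 lay wholly in state 27 at 1 h. The largest reduction was on chromosome 1 (87572162 to 87599586), to 8318 bp at 4 h, against 27425 bp at 1 h, and H3K36me3 covered 92.5% of that region at 4 h and 78.6% at 1 h. In the second, on chromosome 13 (20937153 to 20949264), the domain was 816 bp at 4 h and 12112 bp at 1 h, with H3K36me3 over 85.0% at 4 h and 46.6% at 1 h. In the third, on chromosome 1 (175672790 to 175687958), it was 4265 bp at 4 h and 15169 bp at 1 h, with H3K36me3 over 79.5% at 4 h and 6.38% at 1 h. The remaining 2, on chromosomes 16 (77082263 to 77093400) and 1 (84090787 to 84102331), were fully under H3K36me3 at 4 h. These regions were picked for their H3K36me2 widths, and H3K36me3 comes from other libraries. In 4 of the 5 it covered more at 4 h than at 1 h, and in the fourth all of it at both times. Over all removed length the H3K36me3 share was nearly the same, at 48.6% at 4 h and 48.1% at 1 h.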

How the data were processed

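The peak lists are the authors' deposited broad peaks, 1 list per library. The submitters' processing notes name Bowtie 1.0.1, MACS2 and the build mm9. No source used here gives the MACS2 version or settings, the control library or any pooling. Fold enrichment (a ratio), −log10 p, −log10 q and the score of each peak are the authors' deposited values, and only the first 3 were used, to describe or filter peaks. The deposited segmentations name 1 of 27 states per interval, and no source used here names the tool behind them.

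Intervals of chromosomes 1 to 19 and X were compared in Python 3.11.15 with numpy 2.4.6 and pandas 2.3.3, with an overlap of at least 1 bp, and the code was tested on simulated lists with known events. Added and removed length was split by base pair and laid on the 1 h segmentation. Gaps are those between neighbouring 1 h peaks, and a gap is closed where 1 4 h peak overlaps both. Shares of peaks or gaps have 95% Wilson intervals from scipy 1.17.1. Shares of length have none, since neighbouring bases are not independent. The named regions are the 5 widest new and lost peaks, the 5 merged domains with the most 1 h peaks, the 5 longest filled gaps and the 5 largest changes of width each way. The named states are the 5 with the most added length and the 3 highest and 3 lowest rates. The comparison and its members were chosen with earlier results of these data known. No genome or annotation of mm9 was used, so genes and sequences are not given. The alternatives were a −log10 q of at least 5, peaks of at least 1 kb, joined peaks, equal numbers of peaks, equal covered length, all sequences, a 50% overlap, added pieces of at least 200 bp, segments of at least 400 bp and the untreated segmentation.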

Additional observations from a re-analysis of the deposited data

How the results depend on the processing

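Of 138 values under 12 alternatives, 71 stayed within 1.5 times the main value (counts) or within an interval for counting error (other values), and 67 did not. Counts and shares cannot be negative, so a change of sign was possible only for the net length, the median width change and the gap difference. None of these changed sign. The net length was left out at equal covered length, where the 4 h list was trimmed to the length of the 1 h list. Some of these intervals treat pieces of length as independent and are narrow. No paired analysis was possible because each time has 1 library. Joining peaks within 1 kb changed nothing, since the smallest gap between peaks is 1233 bp at 4 h and 1221 bp at 1 h. Joining within 3 kb, chosen after the data were seen, left 3881 new and 2100 lost peaks, 2606 merged and 802 split domains, a median width change of 269 bp and 26.8 Mb net. The added length was then 11.8% new peaks, 52.0% edges and 36.3% gaps, with 24.5% from state 26 (less than the 30.2% from state 15), 47.5% of state 7 added and H3K27me3 at 1 h over 3.75%. No gap of 1.5 to 2 kb is then left.

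Where both lists kept only peaks with −log10 q of 5 or more, 489 domains merged and 162 split, the median width change was 257 bp and the net difference 46.2 Mb. The added length was 83.9% new peaks, 14.1% edges and 1.97% gaps, with 26.3% from state 26, 11.8% from state 15, 5.67% from state 27 and H3K27me3 over 1.59%. Of state 7, 22.2% was added (state 3 then led), and the difference in closed gaps with and without H3K4me3 was −18.2 percentage points, against −36.3. This threshold keeps 32.5% of 4 h peaks and 22.6% of 1 h peaks and drops each without regard to its partner, which makes peaks look new by construction.

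Peaks of at least 1 kb gave 197 bp, 28.8 Mb net, 25.3% new peaks, 49.0% edges, 25.7% gaps, 31.6% from state 26, 44.8% of state 7 and 3.09% with H3K27me3. Equal numbers by width gave 28.9 Mb net with 20.4%, 49.4% and 30.2% in new peaks, edges and gaps. Equal numbers by −log10 p gave 31.3 Mb with 22.5%, 48.8% and 28.7%, and 31.0% from state 26. Equal covered length, with 38478 4 h peaks kept, gave 10457 lost peaks, 171.5 bp, 16.9%, 49.5% and 33.6% in new peaks, edges and gaps, 31.0% from state 26, 42.4% of state 7 and −32.3 percentage points for gaps with H3K4me3. Added pieces of at least 200 bp gave 19.4%, 48.3% and 32.3%. Segments of at least 400 bp gave 31.1% from state 26 and 51.0% of state 7, where state 11 then led. The untreated segmentation gave 28.6% and 46.6%. The cause of these shifts was not tested. Read depth is unknown, so how far it limits the calls cannot be given.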
